A study of Homo sapiens with 48 samples.

Results

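Glycolysis turns glucose into pyruvate and lactate in a fixed chain of enzymes, and many of those enzymes are also targets of the hypoxia-inducible factors (HIF), the transcription factors that cells stabilise when oxygen is short. The set described here holds 33 genes chosen by name: 19 enzymes and regulators of glycolysis, and 14 genes known as HIF targets or as parts of the HIF pathway. The platform annotation named 59 probes for 32 of them, out of 47323 probes on the array. Probes above background on 4 or more of the 48 arrays were used, 50 for 31 genes, out of 11886 genes tested in all. CA9 is not analysed here, and EGLN3 was not tested because its probe was above background on 1 array.

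RNA came from a clonal line of U2OS, a human osteosarcoma cell line, that stably expresses wild-type rat glucocorticoid receptor alpha (GRα). Every group shared this added receptor, and all cells came from the same clone. Arrays were Illumina HT-12 v4 bead arrays, 4 for each of 12 groups. Cells received no siRNA (NI), a nonspecific siRNA (siNS) or an siRNA against Hic-5 (siHic5_2), a focal adhesion protein, encoded by TGFB1I1, known also as a nuclear receptor coregulator. A single siRNA against Hic-5 was used, at 60 pmol per well as for siNS. Each state was sampled after 0, 2, 4 or 24 h of dexamethasone (Dex), a synthetic glucocorticoid, in medium with fetal bovine serum. Dex was added 2 days after transfection for the 24 h groups and 3 days after it for the 2 and 4 h groups, and all groups were harvested together. The series asks how loss of Hic-5 changes gene expression before and after hormone. No group was kept in low oxygen, and nothing in the labels ties replicates to separate cultures, so the spread behind the p-values may in part be technical.

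In well-oxygenated cells EGLN1 and EGLN3 hydroxylate the HIF alpha subunits HIF1A and EPAS1, which marks them for destruction. With little oxygen the subunits persist, pair with a partner protein and bind a short DNA core. Their protein level is set mainly after transcription, so mRNA levels of HIF1A and EPAS1 are not a measure of HIF activity. Glucocorticoid receptor bound by Dex moves to the nucleus, activates genes such as TSC22D3 and FKBP5, and represses others.

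Promoter windows of 300 bases, from 250 before to 50 after a gene's start, were taken from RefSeq (GRCh38.p14) and matched for 28 of the 31 genes, while NDRG1, VEGFA and BNIP3L were not matched. The HIF core was searched as ACGTG or GCGTG on both strands, where a palindromic CACGTG counts as 2 overlapping matches. It was found in 35 of the 51 windows of these genes (68.6%), against 17012 of all 35116 windows (48.4%). A core of the glucocorticoid receptor element, ACANNNTGT, was in 0 of the 51 windows and in 1885 of all windows (5.37%), and no match of the motifs overlapped. These matches describe letters, and nothing was measured on binding. GAPDH (2 matches) and PGK1 (4 matches), which passed in no comparison of the main test below, held the HIF core too. The windows of 5 genes that the results turn on, each with a single annotated start, are printed 5′ to 3′ with the HIF core in capitals: ALDOC (5 matches), which was higher with siHic5_2 at every time, ENO2 (1 match) and ADM (1 match), which moved at 24 h, and BNIP3 (6 matches) and EPAS1 (1 match), which rose with hormone. They lie at chr17:28576846-28577145 on the minus strand, chr12:6914330-6914629 on the plus strand, chr11:10304823-10305122 on the plus strand, chr10:131981874-131982173 on the minus strand and chr2:46297157-46297456 on the plus strand.
ALDOC: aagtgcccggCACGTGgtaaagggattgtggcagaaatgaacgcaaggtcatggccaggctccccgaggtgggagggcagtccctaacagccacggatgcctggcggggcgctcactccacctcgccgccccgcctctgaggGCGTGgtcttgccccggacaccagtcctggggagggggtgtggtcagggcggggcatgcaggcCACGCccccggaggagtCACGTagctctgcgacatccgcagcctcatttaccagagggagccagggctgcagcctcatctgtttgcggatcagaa
ENO2: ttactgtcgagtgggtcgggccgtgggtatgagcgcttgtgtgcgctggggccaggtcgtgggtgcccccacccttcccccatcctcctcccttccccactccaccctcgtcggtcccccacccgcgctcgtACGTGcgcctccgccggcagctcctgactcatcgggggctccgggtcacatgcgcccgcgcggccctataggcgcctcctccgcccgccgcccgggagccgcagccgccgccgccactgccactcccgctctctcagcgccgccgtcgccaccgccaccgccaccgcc
ADM: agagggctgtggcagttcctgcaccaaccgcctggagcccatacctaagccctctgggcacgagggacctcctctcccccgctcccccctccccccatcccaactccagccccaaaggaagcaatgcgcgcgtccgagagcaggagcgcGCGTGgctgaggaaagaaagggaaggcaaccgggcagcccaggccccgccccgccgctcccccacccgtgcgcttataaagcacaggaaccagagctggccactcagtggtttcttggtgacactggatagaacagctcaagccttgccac
BNIP3: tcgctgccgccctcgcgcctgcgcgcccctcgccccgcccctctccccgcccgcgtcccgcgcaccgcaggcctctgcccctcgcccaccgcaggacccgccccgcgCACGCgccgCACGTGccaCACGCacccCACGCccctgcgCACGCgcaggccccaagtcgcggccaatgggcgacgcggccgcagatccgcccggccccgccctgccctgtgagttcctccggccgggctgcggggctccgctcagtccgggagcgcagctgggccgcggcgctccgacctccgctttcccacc
EPAS1: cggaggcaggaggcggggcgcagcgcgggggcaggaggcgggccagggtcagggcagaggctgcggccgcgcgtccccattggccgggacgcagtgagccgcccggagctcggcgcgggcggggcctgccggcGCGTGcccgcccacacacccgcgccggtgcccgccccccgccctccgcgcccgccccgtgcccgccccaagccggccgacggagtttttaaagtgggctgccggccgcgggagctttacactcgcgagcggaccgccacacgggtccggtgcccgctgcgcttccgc

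Arrays had a median intensity of 133.6 to 193, their negative controls had one of 114.4 to 161.1, and the share of probes above background was 31.7 to 38.3%. TGFB1I1, the siRNA target, ranged over 4.91 to 6.75 on the 16 siHic5_2 arrays and over 8.49 to 10.17 on the siNS arrays in normalized log2 level. The difference was -3.41 at 0 h and -3.33 at 2 h, where 2 of 4 and 1 of 4 siHic5_2 arrays were above background. At 4 and 24 h 0 of 4 were, so the difference has only a bound there, at least 10.57-fold and at least 5.707-fold lower than in siNS (limma adjusted p = 3.7e-15 and 4.62e-13). TGFB1I1 was itself lower at 24 h than at 0 h of Dex, by 1.06 in siNS and 1.06 in NI (limma adjusted p = 0.000569 and 0.000612). The controls of the 24 h comparisons thus had less TGFB1I1 mRNA than those at 0 h. All siHic5_2 arrays lay below all siNS arrays at each time, with a two-sided exact permutation p of 0.0286 each, as low as the 70 ways to split these arrays allow. Of 6 mesenchymal and osteoblast markers, 5 were tested and all 5 were above background on every array (VIM, COL1A1, SPARC, RUNX2 and ALPL). Of 6 epithelial markers 4 were tested, 3 of them above background on every array, of 7 blood markers 0 passed the filter, and of 5 endothelial markers 3 were tested and 0 were above background on every array. Array means over the tested markers were 10.98 to 11.96 for the mesenchymal list and 5.18 to 6.39 for the endothelial list. The epithelial list moved with the groups: its array means were 8.466 to 8.812 in siNS and 8.054 to 8.339 in siHic5_2 at 0 h, and 7.825 to 8.039 and 7.727 to 7.897 at 24 h. The endothelial list had 5.611 to 6.019 in siNS and 5.175 to 5.425 in siHic5_2 at 24 h. The mesenchymal list was lower at 24 h than at 0 h, with 11.276 to 11.578 then 11.052 to 11.294 in siNS. It had 11.373 to 11.576 then 10.982 to 11.3 in NI, and 11.494 to 11.818 then 11.174 to 11.461 in siHic5_2. The part of these markers in the results was not tested. In these bulk samples a change in the cells present and a change of RNA per cell cannot be told apart.

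The values that follow are normalized log2 levels, so a difference of 1 is a doubling. Differences were tested with limma in a single model of the 12 group means, and a gene is said to have risen or fallen, or to be higher or lower, where its Benjamini-Hochberg adjusted p over all 11886 genes was under 0.05. The median standard error was 0.202 for a difference between 2 groups and 0.285 for a difference of responses. The 4 arrays per group limit this precision. Of the 31 genes, 28 were above background on all 48 arrays, and the exceptions were ENO2 on 43, VEGFA on 45 and ANKRD37 on 42.

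Some of these genes were higher with Hic-5 siRNA before any hormone was given. At 0 h of Dex 8 of 31 genes were higher in siHic5_2 than in siNS and 0 were lower: HK1, PFKM, ALDOC and PFKFB3 among the glycolysis genes, and ADM, BNIP3L, EGLN1 and EPAS1 among the hypoxia genes. This is 25.8% of the members, beside 25.9% of all genes called in either direction, 13.8% higher and 12.1% lower. At 2 h 7 were higher (22.6%), beside 25.8% of all genes called, 14.3% higher and 11.5% lower. At 4 h 8 were higher (25.8%), beside 30.3% called, 16.3% higher and 14.1% lower. At 24 h 9 were higher (29%), beside 29.7% called, 15.8% higher and 13.9% lower. Members called lower numbered 0 at each time. The share of members called was therefore near that of all genes. The called members lay on the higher side, and the median difference over the 31 genes was 0.29, 0.19, 0.23 and 0.29 at the 4 times, where the median of all genes was 0.01 to 0.03. The 19 glycolysis genes had medians of 0.04, 0.08, 0.24 and 0.27, so they were near all genes at 0 and 2 h. The 12 hypoxia genes had 0.30, 0.41, 0.19 and 0.46. The absence of lower calls did not hold under every setting. HK2 was lower at 0 h without siNS 0 h replicate 4, ANKRD37 was lower at 2 h with slide as a block and at 4 h without siHic5_2 4 h replicate 4, and PGK1 and PGAM1 were lower at 4 h without siHic5_2 4 h replicate 2 or with the mean of a gene's probes. With NI as the control at 4 h, PGK1 (-0.31, adjusted p = 0.021) and PGAM1 (-0.50, adjusted p = 0.0105) were lower. ALDOC and HK1 were higher at all 4 times, though the HK1 calls were lost when its 2 probes were averaged. Without siNS 2 h replicate 1 the count at 2 h was 4, and without siNS 4 h replicate 1 the count at 4 h was 5. These comparisons share their siNS arrays with the hormone responses in siNS, so the values of the comparisons stand side by side and are not independent.

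**Figure D1:**
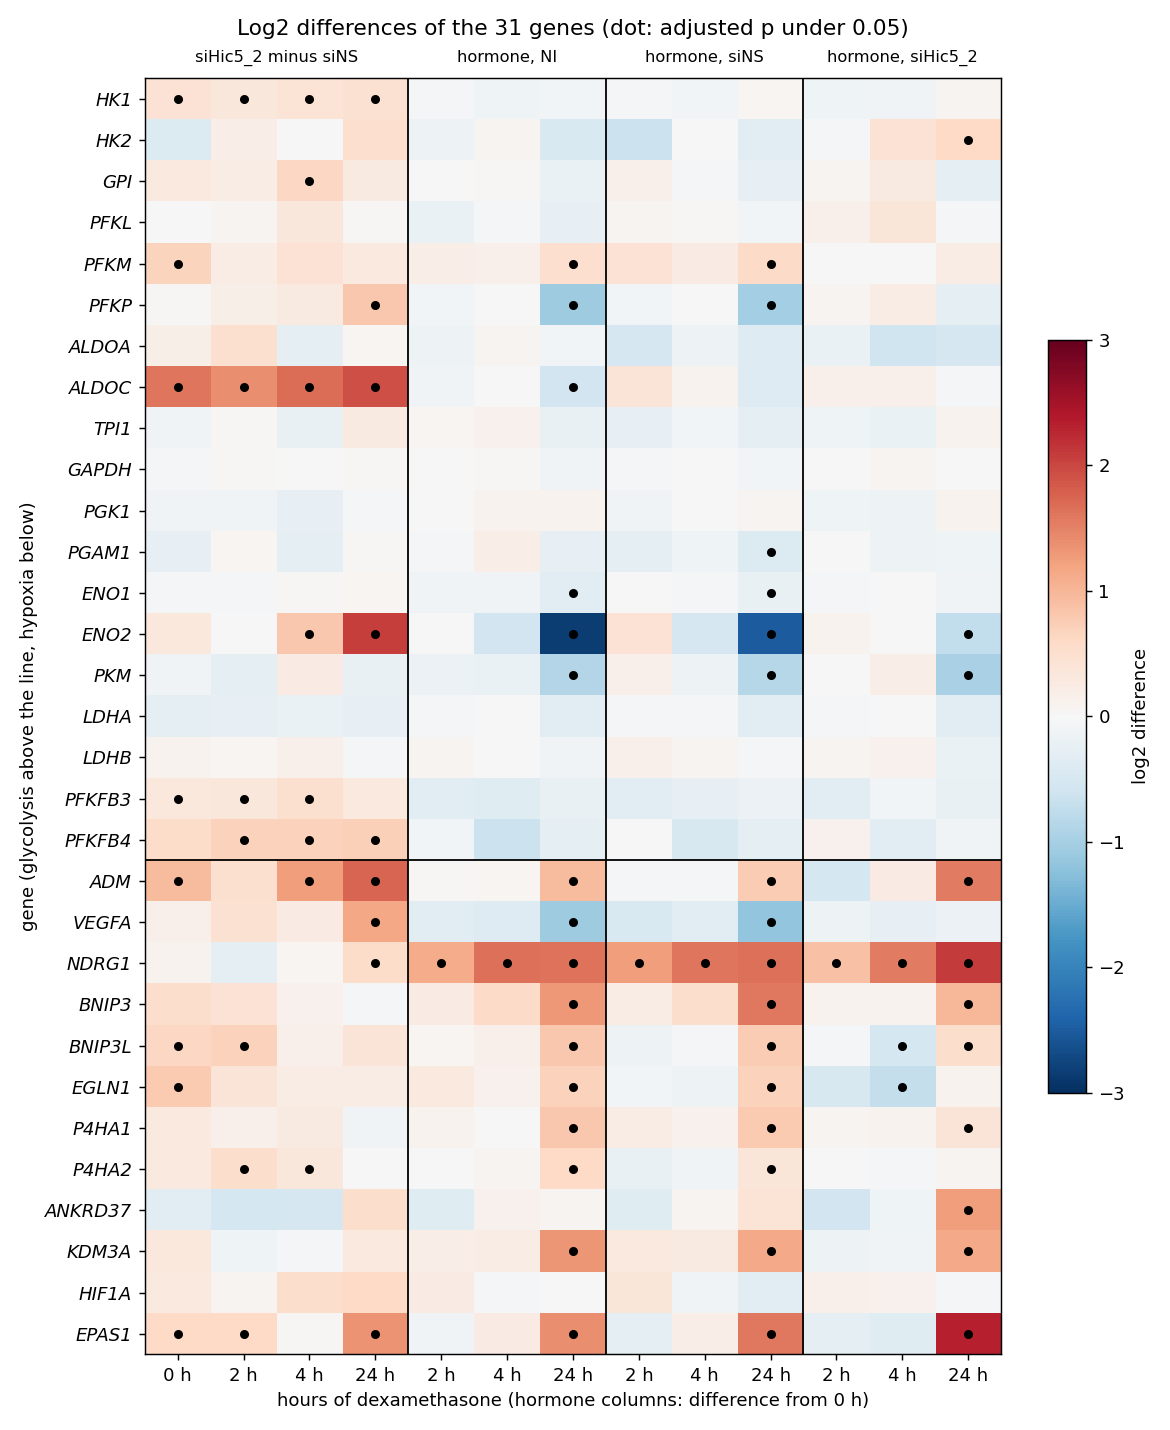
Log2 differences of the 31 genes tested, in rows with the 19 glycolysis genes above the line and the 12 hypoxia genes below it. Columns give siHic5_2 minus siNS at 0, 2, 4 and 24 h of dexamethasone and the hormone response from 0 h in NI, siNS and siHic5_2, colours run from -3 (blue) to 3 (red), and a dot marks an adjusted p under 0.05. ALDOC stands out over the 4 knockdown columns, NDRG1 over all 9 hormone columns, and the 24 h columns hold most of the other dots.

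ALDOC encodes aldolase C, the isoform best known from brain, which splits fructose bisphosphate into the triose phosphates. Its 0 h levels were 9.13, 9.14, 9.92 and 9.59 in siNS, 9.54, 9.72, 9.84 and 9.63 in NI and 11.13, 10.76, 11.23 and 11.12 in siHic5_2. At 24 h the ALDOC levels were 8.60, 8.996, 9.55 and 9.10 in siNS, 8.58, 9.23, 9.44 and 9.17 in NI and 11.06, 10.69, 11.11 and 11.16 in siHic5_2. Every siHic5_2 array lay above every siNS and NI array of its time, at 2 and 4 h too. ALDOC was 1.62 ± 0.20 higher at 0 h (log2 difference ± SE, 3.06-fold, adjusted p = 1.12e-07). It was 1.39 higher at 2 h (2.61-fold, adjusted p = 1.92e-06), 1.68 at 4 h (3.2-fold, adjusted p = 5e-08) and 1.94 at 24 h (3.84-fold, adjusted p = 1.07e-09). Within the slides that held both groups, the ALDOC difference was 1.21 to 1.98 at 0 h and 1.56 to 2.08 at 24 h.  With Dex ALDOC fell by 0.58 in NI at 24 h (adjusted p = 0.0198), a call lost without NI 0 h replicate 3 or NI 24 h replicate 1 (adjusted p up to 0.129). In siNS its change was -0.38 (adjusted p = 0.133, and 0.0079 with the replicate block within each state) and in siHic5_2 it was -0.06 (adjusted p = 0.867).

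ALDOA, the widely expressed aldolase, was called in no comparison by its brightest probe without the replicate block. With the block within each state it was lower in siHic5_2 at 4 h (-0.61, adjusted p = 0.0398) and 24 h (-0.51, adjusted p = 0.0478), and with the mean of its probes it was called at 24 h in siNS and siHic5_2. The other changes of the upper steps were smaller than that of ALDOC. HK1, the common hexokinase, was 0.43, 0.34, 0.42 and 0.45 higher at 0, 2, 4 and 24 h (adjusted p = 0.00237, 0.0154, 0.00255 and 0.00104) by its brighter probe, while its other kept probe gave -0.01 to 0.20. At 2 h the HK1 difference was -0.04 on 1 of the 2 slides that held both groups, and that call was also lost without siNS 2 h replicate 1. GPI, which converts glucose phosphate to fructose phosphate, was 0.62 higher at 4 h (adjusted p = 0.00165). PFKM, the muscle-type phosphofructokinase subunit, was 0.66 higher at 0 h (adjusted p = 0.00384). PFKFB3 and PFKFB4 make or break the fructose bisphosphate that switches phosphofructokinase on. PFKFB3 was 0.32, 0.33 and 0.49 higher at 0, 2 and 4 h (adjusted p = 0.04, 0.0359 and 0.0017). Its 0 and 2 h calls were lost with NI as the control (adjusted p = 0.0788 and 0.05). Leaving out any of siNS 0 h replicate 2 or 4 or siHic5_2 0 h replicate 3 or 4 also ended the first (adjusted p up to 0.142), and leaving out any siNS 2 h array or siHic5_2 2 h replicate 3 or 4 ended the second (up to 0.152). With no detection filter the 0 h call was lost (adjusted p = 0.0541), and with slide as a block the 2 h call was (0.137). PFKFB4 was 0.69, 0.69 and 0.72 higher at 2, 4 and 24 h (adjusted p = 0.0181, 0.0169 and 0.0117). The 2 h call of PFKFB4 was lost without siNS 2 h replicate 1 or siHic5_2 2 h replicate 1 or 4 (adjusted p up to 0.083), the 4 h call without siNS 4 h replicate 1 or siHic5_2 4 h replicate 4 (up to 0.134), and the 24 h call without siHic5_2 24 h replicate 1 (0.0579).

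PFKP, the platelet-type phosphofructokinase subunit that acts at the committed step, differed between siHic5_2 and siNS after 24 h of Dex. Its levels were 10.18, 9.79, 10.17 and 9.87 in siNS at 0 h and 8.85, 8.96, 8.92 and 9.16 at 24 h. In NI the PFKP levels were 10.17, 10.28, 9.79 and 9.88 at 0 h and 8.99, 9.07, 8.68 and 9.12 at 24 h. In siHic5_2 they were 9.98, 10.29, 10.01 and 9.91 at 0 h and 9.74, 9.96, 9.65 and 9.74 at 24 h. The 24 h arrays of siNS and NI lay below all their 0 h arrays, whereas the siHic5_2 times overlapped. PFKP fell by 1.03 ± 0.14 in siNS (2.04-fold, adjusted p = 1.15e-07) and by 1.07 in NI (2.10-fold, adjusted p = 5.79e-08). In siHic5_2 the change was -0.27 and was not called. The difference between the siHic5_2 and siNS responses was 0.76 ± 0.20 (adjusted p = 0.0206), and against NI in place of siNS it was 0.80 (adjusted p = 0.0132). The call against siNS was lost without siNS 0 h replicate 1 or siHic5_2 24 h replicate 2, with a highest adjusted p of 0.0546. At 24 h PFKP was 0.80 higher in siHic5_2 than in siNS (1.74-fold, adjusted p = 3.04e-05), a comparison that shares its siNS arrays with the response in siNS.

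ENO2, the neuron-type enolase that makes phosphoenolpyruvate, fell at 24 h of Dex in every state. In siNS its levels were 8.26, 8.35, 8.92 and 8.42 at 0 h, 7.48, 8.02, 8.84 and 7.62 at 4 h and 5.74, 6.31, 6.37 and 5.58 at 24 h. In NI they were 8.64, 8.93, 8.84 and 8.50 at 0 h and 6.12, 6.35, 5.66 and 5.34 at 24 h. In siHic5_2 the ENO2 levels were 8.68, 8.73, 8.67 and 9.12 at 0 h and 8.03, 8.05, 8.26 and 7.94 at 24 h. The 24 h levels were below those at 0 h in every state, with a gap in siNS and NI far wider than in siHic5_2. ENO2 fell by 2.49 ± 0.26 in siNS (5.61-fold, adjusted p = 2.2e-10), by 2.86 in NI (7.25-fold, adjusted p = 5.59e-12) and by 0.73 in siHic5_2 (1.66-fold, adjusted p = 0.0258). The fall in siHic5_2 was lost as a call without siHic5_2 0 h replicate 4, or without siHic5_2 24 h replicate 1 or 4 (adjusted p up to 0.0894). The difference of responses was 1.76 ± 0.37 (adjusted p = 0.00227) against siNS and 2.13 (adjusted p = 0.000191) against NI. The ENO2 probe was above background on 1 of 4 siNS and 2 of 4 NI arrays at 24 h, and the size of the fall moved with the background correction. Without that correction the fall in siNS was -1.40 and the difference of responses 0.86, and both calls were kept. At 24 h ENO2 was 2.07 higher in siHic5_2 than in siNS (4.20-fold, adjusted p = 7.36e-08), with 1.73 to 2.31 within 3 slides. At 4 h the difference was 0.81 (adjusted p = 0.0161), with overlapping groups, and was 0.66 (adjusted p = 0.0507) against NI. That 4 h call was also lost without siNS 4 h replicate 1 or 4 or siHic5_2 4 h replicate 4 (adjusted p up to 0.0847).

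ENO1, the ubiquitous enolase, moved far less: it fell by 0.21 in siNS (adjusted p = 0.0283) and by 0.32 in NI (adjusted p = 0.0011) at 24 h, and was not called in siHic5_2 (-0.11). The ENO1 call in siNS was lost without siNS 0 h replicate 4 or siNS 24 h replicate 1 or 2 (adjusted p up to 0.106). PKM, pyruvate kinase of the last step, fell in all 3 states. The PKM change was -0.86 in siNS (adjusted p = 9.67e-07), -0.98 in siHic5_2 (adjusted p = 8.05e-08) and -0.88 in NI (adjusted p = 5.8e-07). All 3 of its probes gave a fall, from -0.86 to -1.31 in siNS. The difference of responses for PKM was -0.12, with an interval of -0.50 to 0.25, and was not called. PGAM1, phosphoglycerate mutase, fell by 0.41 in siNS (adjusted p = 0.0273), and PFKM rose by 0.57 in siNS (adjusted p = 0.00697) and 0.51 in NI (adjusted p = 0.0168). The PGAM1 call was lost without siNS 0 h replicate 2 or 3 or siNS 24 h replicate 2 (adjusted p up to 0.0926), and the PFKM call in NI without NI 0 h replicate 1 or NI 24 h replicate 3 (up to 0.0986). LDHA, which reduces pyruvate to lactate, changed by -0.34, -0.32 and -0.34 at 24 h in siNS, siHic5_2 and NI. These LDHA changes, of its brightest probe, were not called (adjusted p = 0.0622, 0.0883 and 0.0566) and were called with the replicate block (adjusted p = 0.00635, 0.0111 and 0.00541). With the mean of its probes LDHA was called as lower in all 3 states, and without background correction it was called in NI. Its 3 probes gave -1.02 to -0.34 in siNS, -0.67 to -0.32 in siHic5_2 and -1.09 to -0.34 in NI. With all arrays, background correction, the brightest probe and no block, PFKL, ALDOA, TPI1, GAPDH, PGK1, LDHA and LDHB were called in no comparison with siNS or between times.

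GAPDH, a glycolytic enzyme often used as a reference gene, stayed within a narrow range by the brightest of its 3 kept probes. Its levels at 0 h were 14.27, 14.31, 14.31 and 14.14 in siNS and 14.11, 14.31, 14.14 and 14.28 in siHic5_2. At 24 h the GAPDH levels were 14.27, 14.12, 14.18 and 14.14 in siNS and 14.24, 14.18, 14.14 and 14.25 in siHic5_2. The groups overlapped in every comparison of siHic5_2 with siNS. The difference between siHic5_2 and siNS was -0.05, 0.04, 0.01 and 0.03 at 0, 2, 4 and 24 h, and the 95% interval at 24 h was -0.15 to 0.20. Over its 3 probes the GAPDH difference was -0.049 to 0.155 at 0 h and 0.009 to 0.046 at 2 h. It was 0.012 to 0.339 at 4 h and 0.025 to 0.296 at 24 h, so the other probes differed more than the brightest. The raw intensity of the GAPDH probe used was 11918 to 26627, where the brightest probe of an array read 17967 to 32236. Quantile normalization gives all arrays a common distribution of values, and its part in the narrow range of this bright probe was not tested. Among 8 other reference genes tested of 11 listed, GUSB was lower (-0.66, adjusted p = 9.99e-05) and HPRT1 was 0.47 higher (adjusted p = 0.0203) in siHic5_2 than in siNS at 0 h. At 24 h of Dex in siNS, PPIA fell by 0.86 (adjusted p = 0.0089) and B2M rose by 0.53 (adjusted p = 0.000683). The calls were thus 25% of these 8 genes in the 0 h comparison and 25% in the 24 h response. Of all genes 25.9% were called in siHic5_2 against siNS at 0 h, and 39.6% at 24 h of Dex in siNS.

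**Figure D2:**
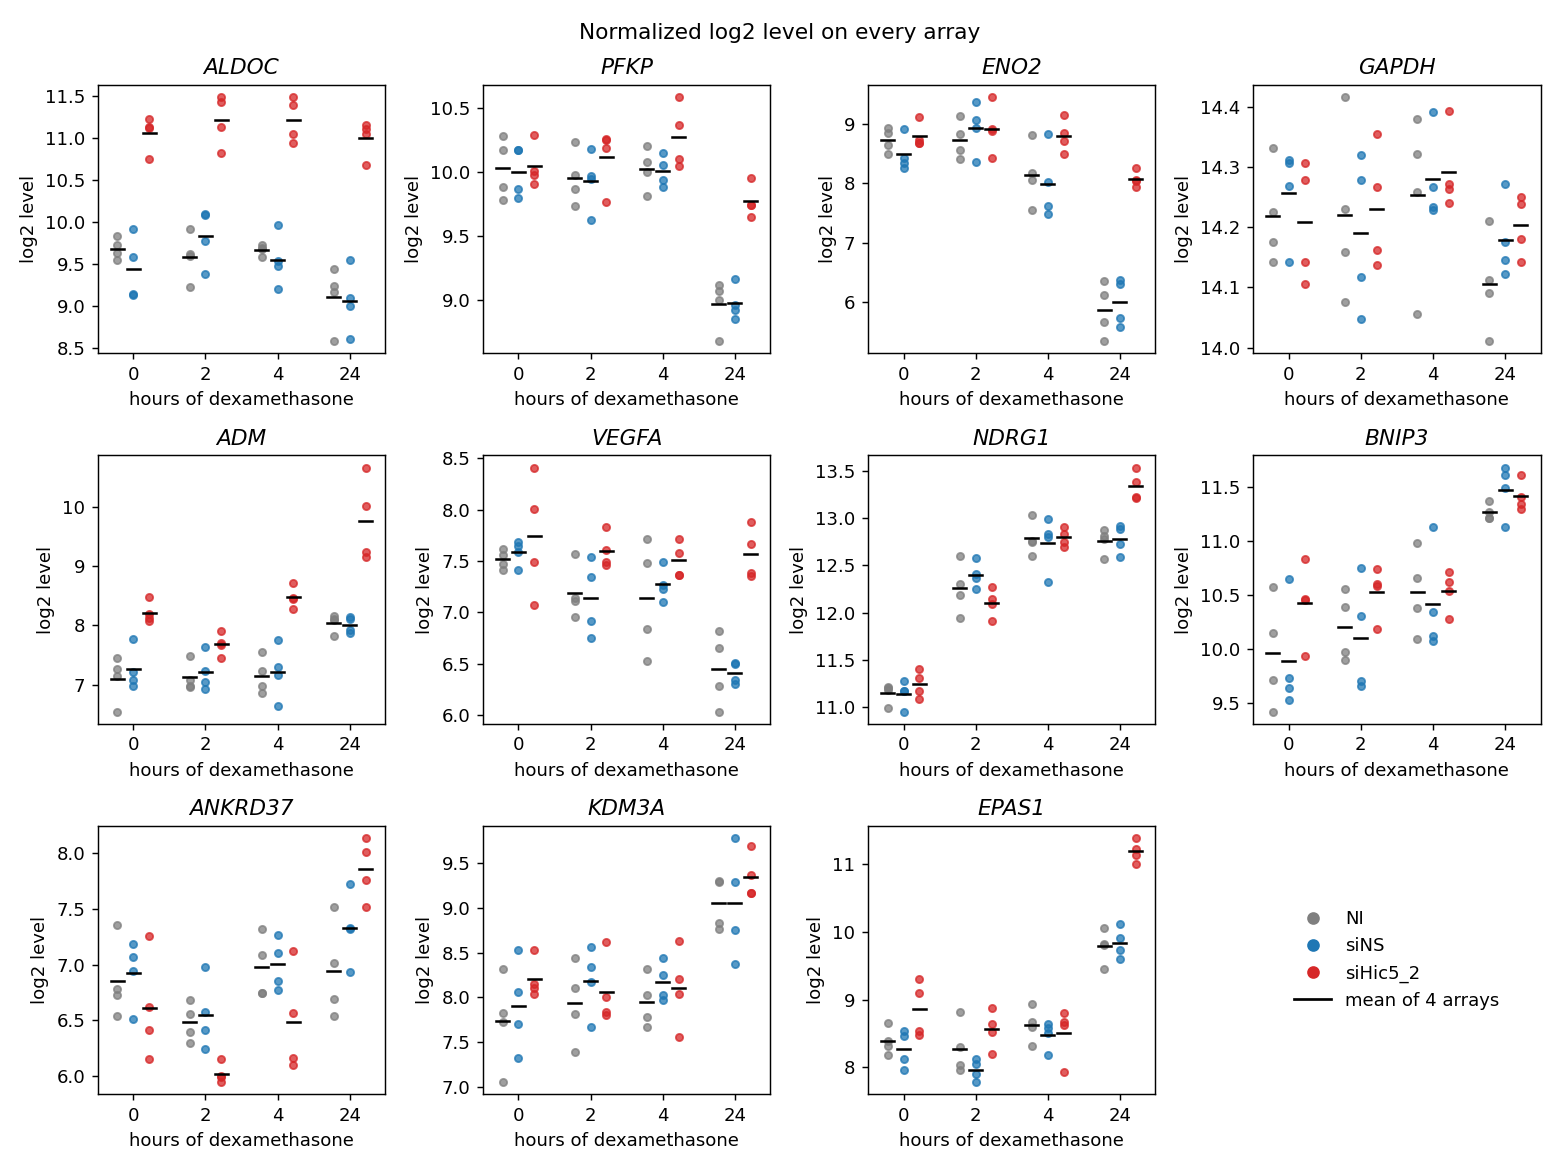
Normalized log2 level on every array of ALDOC, PFKP, ENO2, GAPDH, ADM, VEGFA, NDRG1, BNIP3, ANKRD37, KDM3A and EPAS1 over 0, 2, 4 and 24 h of dexamethasone, with each panel on its own vertical axis. Points are arrays, grey for NI, blue for siNS and red for siHic5_2, and black bars are means of 4 arrays. The red points of ALDOC lie between 10.69 and 11.49 at all times and the blue ones between 8.60 and 10.10, while for PFKP, ENO2 and VEGFA the colours separate at 24 h.

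Most of the hypoxia genes were higher after 24 h of Dex. Of 12 tested, 9 were higher and 1 was lower in siNS: ADM, NDRG1, BNIP3, BNIP3L, EGLN1, P4HA1, P4HA2, KDM3A and EPAS1 rose and VEGFA fell. In NI those 9 rose and VEGFA fell. In siHic5_2 8 rose and 0 fell, with ANKRD37 added and EGLN1 and P4HA2 not called. The median change over the 12 genes was 0.76, 0.81 and 0.76 in siNS, NI and siHic5_2, where all genes had -0.01, -0.03 and 0.01. Over all 31 members, 16 were called in siNS (10 higher and 6 lower), 16 in NI (10 and 6) and 11 in siHic5_2 (9 and 2), beside 39.6, 39.3 and 34.8% of all genes. Of all genes 19.7% were higher and 20% lower in siNS, 18.6 and 20.7% in NI, and 17.8 and 17% in siHic5_2. The glycolysis genes had 1 higher and 5 lower of 19 in siNS and in NI, and 1 higher and 2 lower in siHic5_2. With the replicate block within each state the lower ones were 8, 9 and 6 of 19 in siNS, NI and siHic5_2, with 1 higher in each, and GPI (-0.27), ALDOA (-0.51), LDHA (-0.32) and PFKFB3 (-0.22) were the added ones in siHic5_2 (adjusted p = 0.0401, 0.0478, 0.0111 and 0.0488). That block called 49.5, 49.2 and 45% of all genes at 24 h in siNS, NI and siHic5_2, and the counts of the hypoxia genes stayed at 9 higher and 1 lower, 9 and 1, and 8 and 0. At 2 h 1 of 31 genes, NDRG1, was called, as higher, in each state. Of all genes 4.83% were called then in siNS (2.07% higher, 2.76% lower), 2.97% in NI (1.41% higher, 1.56% lower) and 2.89% in siHic5_2 (1.46% higher, 1.43% lower). At 4 h NDRG1 was again the 1 gene called in siNS and NI, and 3 were called in siHic5_2, where BNIP3L (-0.53) and EGLN1 (-0.71) were lower. Of all genes 8.19% were called then in siNS (4.28% higher, 3.91% lower), 8.82% in NI (4.47% higher, 4.35% lower) and 11.1% in siHic5_2 (5.16% higher, 5.97% lower).

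With the replicate block within each state these early counts were larger. At 2 h 5 genes were called in siNS, 2 in siHic5_2 and 2 in NI, and at 4 h 3, 7 and 5. Of all genes the same fit called 9.66, 5.22 and 5.81% at 2 h and 13.1, 19.2 and 14.1% at 4 h, for the states in that order. Among the added calls were HK2 at 2 h in siNS (-0.65, adjusted p = 0.0656 without the block and 0.00239 with it), PFKFB4 at 4 h in siNS (-0.47, 0.267 and 0.00649, adjusted p-values in the same order) and in NI (-0.63, 0.0707 and 0.000244), and BNIP3 at 4 h in siNS (0.53, 0.262 and 0.011). PFKFB3 was lower at 2 h with the block in siNS (-0.31, adjusted p = 0.0257), siHic5_2 (-0.31, adjusted p = 0.0467) and NI (-0.34, adjusted p = 0.0219). ALDOC and PFKM were higher at 2 h in siNS with it (0.39, adjusted p = 0.0312, and 0.43, adjusted p = 0.016).

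**Figure D3:**
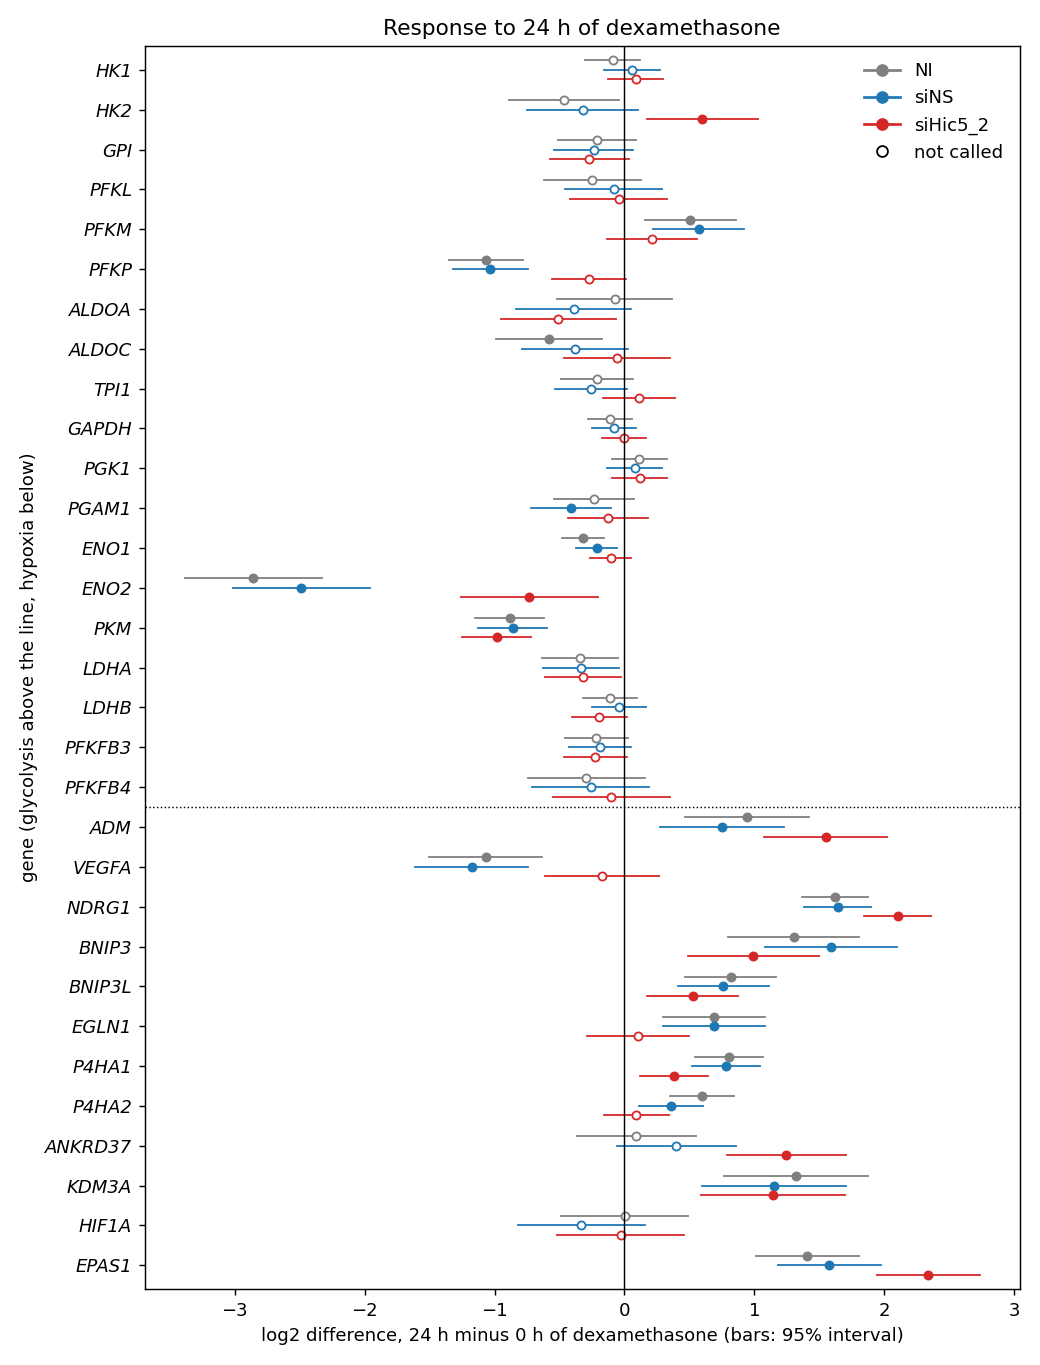
Log2 difference between 24 and 0 h of dexamethasone for the 31 genes in NI (grey), siNS (blue) and siHic5_2 (red), with 95% intervals from the model and filled points for an adjusted p under 0.05. Most hypoxia genes lie to the right of 0, and PFKP, ENO2 and VEGFA lie further left in NI and siNS than in siHic5_2.

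NDRG1, a stress- and differentiation-linked gene, was called at 2, 4 and 24 h in all 3 states. Its levels were 11.28, 10.95, 11.17 and 11.16 at 0 h in siNS, 12.36, 12.41, 12.58 and 12.25 at 2 h, 12.83, 12.80, 13.00 and 12.33 at 4 h and 12.89, 12.91, 12.59 and 12.73 at 24 h. In siHic5_2 the NDRG1 levels were 11.31, 11.08, 11.40 and 11.16 at 0 h, 12.27, 11.91, 12.09 and 12.15 at 2 h, 12.91, 12.70, 12.74 and 12.83 at 4 h and 13.21, 13.54, 13.38 and 13.23 at 24 h. Every treated array lay above every 0 h array of its state. NDRG1 rose by 1.26, 1.60 and 1.64 in siNS (adjusted p = 1.2e-09, 6.18e-13 and 4.94e-14), by 0.87, 1.56 and 2.10 in siHic5_2 (adjusted p = 5.63e-06, 1.51e-12 and 3.76e-17) and by 1.12, 1.65 and 1.62 in NI. At 24 h it was 0.56 higher in siHic5_2 than in siNS (adjusted p = 0.000767), with no overlap of the groups. Between siHic5_2 and siNS the responses differed by -0.39 at 2 h (adjusted p = 1) and 0.46 at 24 h (adjusted p = 0.168).

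ADM encodes adrenomedullin, a vasodilator peptide induced by low oxygen. Its levels at 0 h were 6.98, 7.76, 7.08 and 7.22 in siNS, 6.54, 7.26, 7.14 and 7.45 in NI and 8.48, 8.06, 8.12 and 8.19 in siHic5_2. At 24 h the ADM levels were 7.87, 7.92, 8.14 and 8.11 in siNS, 8.16, 7.82, 8.08 and 8.11 in NI and 9.14, 10.66, 9.23 and 10.01 in siHic5_2. The siHic5_2 arrays were above all siNS arrays of their time at 0, 4 and 24 h, overlapped them at 2 h, and were most spread at 24 h. ADM was 0.96 ± 0.24 higher at 0 h (1.94-fold, adjusted p = 0.00213), 1.26 at 4 h (2.39-fold, adjusted p = 7.33e-05) and 1.75 at 24 h (3.37-fold, adjusted p = 2.44e-07). At 2 h the ADM difference was 0.47 and not called. Within 3 slides the 24 h difference was 1.09 to 2.79. Dex raised ADM by 0.75 in siNS (adjusted p = 0.00924), 1.55 in siHic5_2 (adjusted p = 1e-06) and 0.94 in NI (adjusted p = 0.00124). The difference of responses at 24 h was 0.80, with an interval of 0.13 to 1.47, and did not pass (adjusted p = 0.208), though it did without background correction.

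VEGFA, the main growth factor for blood vessels, went the other way. In siNS its levels were 7.65, 7.69, 7.59 and 7.42 at 0 h and 6.30, 6.34, 6.50 and 6.50 at 24 h. In NI the VEGFA levels were 7.47, 7.62, 7.41 and 7.56 at 0 h and 6.03, 6.66, 6.28 and 6.82 at 24 h. In siHic5_2 they were 7.07, 7.49, 8.41 and 8.01 at 0 h and 7.67, 7.38, 7.88 and 7.36 at 24 h. The 24 h arrays of siNS and NI were all below their 0 h arrays, and the siHic5_2 times overlapped. VEGFA fell by 1.18 ± 0.22 in siNS (2.26-fold, adjusted p = 2.36e-05) and by 1.07 in NI (2.10-fold, adjusted p = 9.82e-05), and changed by -0.17 in siHic5_2 (adjusted p = 0.593). For VEGFA the difference of responses was 1.00, with an interval of 0.39 to 1.62. Its adjusted p was 0.0559 without the replicate block and 0.0296 with it. At 24 h VEGFA was 1.16 higher in siHic5_2 than in siNS (2.24-fold, adjusted p = 6.24e-05), with 1.08 to 1.38 within 3 slides. A second kept probe gave 0.70. The brighter probe was not above background on NI 24 h replicates 1 and 3 and siNS 24 h replicate 2, and without background correction the fall in siNS was -0.61, still called.

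EPAS1, the HIF alpha subunit also known from endothelium, rose in every state. Its levels were 8.54, 7.95, 8.11 and 8.47 at 0 h and 9.74, 9.60, 10.12 and 9.91 at 24 h in siNS, and 9.10, 8.48, 9.31 and 8.54 at 0 h and 11.14, 11.01, 11.39 and 11.23 at 24 h in siHic5_2. In NI the EPAS1 levels were 8.65, 8.18, 8.39 and 8.31 at 0 h and 10.07, 9.45, 9.82 and 9.81 at 24 h. All 24 h arrays lay above the 0 h arrays of their state, and the siHic5_2 arrays lay above all others at 24 h. EPAS1 rose by 1.58 ± 0.20 in siNS (2.98-fold, adjusted p = 1.26e-08), 2.34 in siHic5_2 (5.06-fold, adjusted p = 6.02e-13) and 1.41 in NI (2.65-fold, adjusted p = 1.56e-07). For EPAS1 the difference of responses was 0.76, which was not called (adjusted p = 0.13). It was called with the replicate block (adjusted p = 0.0024), and with no block when background correction was left out. Against NI in place of siNS it was 0.93 and called (adjusted p = 0.0448). At 24 h EPAS1 was 1.35 higher in siHic5_2 than in siNS (2.56-fold, adjusted p = 1.07e-06), with 1.27 to 1.54 within 3 slides. It was also higher by 0.59 at 0 h and 0.60 at 2 h (adjusted p = 0.0219 and 0.0208), and 0.03 at 4 h. These early calls were lost with NI as the control (adjusted p = 0.066 and 0.31). The 0 h call was also lost without siNS 0 h replicate 2 or 3 or siHic5_2 0 h replicate 1 or 3 (adjusted p up to 0.122) and the 2 h call with slide as a block or without siNS 2 h replicate 2 or siHic5_2 2 h replicate 1 or 3, and at 0 h the difference on 1 of 4 slides was -0.05. HIF1A, by contrast, was called in no comparison of siHic5_2 with siNS or of hormone times, with differences of 0.29, 0.09, 0.53 and 0.59 at 0, 2, 4 and 24 h and an adjusted p of 0.0618 at 24 h. Its 3 probes gave 0.09 to 0.59 there. HIF1A passed at 2 and 24 h with slide as a block and at 4 h with NI as the control.

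EGLN1, the oxygen-sensing prolyl hydroxylase of HIF, was 0.80 higher with siHic5_2 at 0 h (1.74-fold, adjusted p = 0.00207). It rose at 24 h by 0.69 in siNS (adjusted p = 0.004) and 0.69 in NI (adjusted p = 0.00409) and changed by 0.11 in siHic5_2. Within the 2 slides that held both NI groups the change was 0.13 and 0.45, and within 3 slides in siNS it was 0.28 to 1.24. At 4 h in siHic5_2 EGLN1 was lower (-0.71, adjusted p = 0.0107), which did not pass once siHic5_2 4 h replicate 1 was left out (0.0544). The difference of responses at 24 h, -0.58, did not pass (adjusted p = 0.3). P4HA1 and P4HA2 are catalytic subunits of the collagen prolyl hydroxylase. P4HA1 rose by 0.78 in siNS, 0.38 in siHic5_2 and 0.81 in NI at 24 h (adjusted p = 3.69e-06, 0.0184 and 2.27e-06). The P4HA1 call in siHic5_2 was lost without siHic5_2 0 h replicate 3 or siHic5_2 24 h replicate 1 or 4 (adjusted p up to 0.09). P4HA2 rose by 0.36 in siNS (adjusted p = 0.0174) and 0.60 in NI (adjusted p = 0.00012). In siHic5_2 it changed by 0.09, and its 3 probes gave -0.43 to 0.09. P4HA2 was 0.53 and 0.35 higher with siHic5_2 at 2 and 4 h (adjusted p = 0.0012 and 0.0274), where the probes at 4 h gave -0.62 to 0.36. The 4 h call of P4HA2 was lost with NI as the control and without siNS 4 h replicate 1, 3 or 4 or siHic5_2 4 h replicate 1, and its siNS response was lost without siNS 24 h replicate 3 or 4. With the mean of its probes both were lost (adjusted p up to 0.905 and 0.129).

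BNIP3 and BNIP3L are receptors that mark mitochondria for removal by autophagy. BNIP3 levels were 9.64, 9.73, 10.65 and 9.53 at 0 h and 11.13, 11.61, 11.68 and 11.49 at 24 h in siNS, 9.71, 10.15, 10.57 and 9.42 then 11.37, 11.21, 11.21 and 11.27 in NI, and 10.45, 10.84, 9.93 and 10.47 then 11.41, 11.34, 11.30 and 11.61 in siHic5_2. The 24 h arrays lay above all 0 h arrays in each state, and replicate 3 was the highest of the 0 h arrays in siNS and NI. BNIP3 rose by 1.59 ± 0.25 in siNS (3.01-fold, adjusted p = 1.74e-06), 0.99 in siHic5_2 (1.99-fold, adjusted p = 0.00166) and 1.30 in NI (2.46-fold, adjusted p = 4.82e-05). BNIP3L rose by 0.76, 0.52 and 0.82 in the same order (adjusted p = 0.000398, 0.0153 and 0.000172). BNIP3L was also 0.63 and 0.70 higher with siHic5_2 at 0 and 2 h (adjusted p = 0.0057 and 0.00205). Its 4 h change in siHic5_2 was -0.53 (adjusted p = 0.0373) by the brighter probe and 0.30 by the other, and that call was lost under 8 of its alternatives. The 24 h call of BNIP3L in siHic5_2 was lost without siHic5_2 0 h replicate 3 (adjusted p = 0.0823).

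ANKRD37 and KDM3A, an ankyrin-repeat protein gene and a histone demethylase gene that low oxygen induces, complete the set. ANKRD37 levels in siHic5_2 were 6.62, 7.25, 6.16 and 6.41 at 0 h, 5.95, 6.16, 5.99 and 6.00 at 2 h and 7.76, 8.13, 7.52 and 8.01 at 24 h. In siNS they were 7.19, 6.52, 7.07 and 6.94 at 0 h, 6.41, 6.58, 6.98 and 6.24 at 2 h and 6.93, 7.32, 7.73 and 7.33 at 24 h. The siHic5_2 arrays were below the siNS arrays at 2 h and the higher of the 2 groups on average at 24 h. ANKRD37 rose by 1.25 ± 0.23 at 24 h in siHic5_2 (2.37-fold, adjusted p = 2.45e-05). Its changes of 0.40 in siNS and 0.09 in NI were not called. For ANKRD37 the difference of responses was 0.85 (adjusted p = 0.152, with the replicate block 0.0283). Its probe was not above background on 6 of the 48 arrays, all of them siHic5_2 arrays at 0, 2 and 4 h, and without background correction the rise in siHic5_2 was 0.69, still called. KDM3A levels were 7.33, 8.53, 7.71 and 8.06 at 0 h and 8.37, 9.78, 8.76 and 9.29 at 24 h in siNS, and 8.15, 8.11, 8.04 and 8.53 then 9.17, 9.37, 9.17 and 9.70 in siHic5_2. The siNS times overlapped by replicate 2 at 0 h, and the siHic5_2 times did not. KDM3A rose by 1.15 ± 0.27 in siNS (2.22-fold, adjusted p = 0.000758), 1.14 in siHic5_2 (2.21-fold, adjusted p = 0.000978) and 1.32 in NI (2.50-fold, adjusted p = 0.000143).

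The direct test of whether Hic-5 knockdown changed a hormone response called 2 of 31 genes at 24 h, PFKP and ENO2, both with a smaller fall in siHic5_2, beside 3.52% of all genes, 1.64% higher and 1.88% lower. It called 0 at 2 h, beside 0.135% of all genes (0.00841% higher, 0.126% lower), and 0 at 4 h, beside 0.454% (0.135% higher, 0.32% lower), and 2 members had an unadjusted p under 0.05 by limma at each of these times. At 24 h 10 members had such a p. With the replicate block within each state 7 were called at 24 h, adding HK2, TPI1, VEGFA, ANKRD37 and EPAS1, beside 9.9% of all genes in that fit. Without siNS 0 h replicate 1 or siHic5_2 24 h replicate 2 the count was 1, and without siHic5_2 0 h replicate 2 or 3 it was 4. HK2, the inducible hexokinase, changed by -0.32 in siNS, -0.47 in NI and 0.60 in siHic5_2 (adjusted p = 0.024). The rise in siHic5_2 was lost without siHic5_2 0 h replicate 1 or 4 or siHic5_2 24 h replicate 3 (adjusted p up to 0.131). Its difference of responses was 0.92 (adjusted p = 0.0776, with the block 0.00297), but a second HK2 probe gave 0.23 in siNS and 0.22 in siHic5_2. TPI1, triose phosphate isomerase, had a difference of responses of 0.37 (adjusted p = 0.376, with the block 0.0411). With NI in place of siNS 5 genes were called, namely HK2, PFKP, ENO2, ANKRD37 and EPAS1, and the share of all genes with that control is not given here. Between siNS and NI over all times 0 of 31 members and 0% of all genes were called by limma, and 0 members had an unadjusted p under 0.05. That fit took no account of the replicate numbers, by which siNS and NI arrays also correlated.

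Other genes of the same pathways, listed from general knowledge, were counted beside the members. Of 28 further glycolysis and lactate genes 19 were measured. With siHic5_2, 3 were higher and 3 lower at 0 h, and 5 and 4 at 24 h. These are 31.6 and 47.4% of the measured list, beside 25.9 and 29.7% of all genes called. LDHC, a testis-type lactate dehydrogenase (-1.08, adjusted p = 0.00134), and ENO3, the muscle enolase (-0.84, adjusted p = 0.00231), were lower at 0 h, and TIGAR, a fructose bisphosphatase (0.86, adjusted p = 4.23e-05), and PDK3, a kinase that restrains pyruvate dehydrogenase (0.58, adjusted p = 0.00782), were higher. After 24 h of Dex in siNS 5 rose and 4 fell, 47.4% of the list, beside 39.6% of all genes called. PFKFB1 was not above background at 0 h and was at least 2.82-fold higher at 24 h (adjusted p = 2.01e-20). SLC2A3, a glucose transporter, rose by 1.26, 1.27 and 1.65 at 2, 4 and 24 h (adjusted p = 2.96e-07, 8.66e-08 and 2.87e-11). PDHA1, a pyruvate dehydrogenase subunit, rose by 1.20 at 24 h (adjusted p = 2.44e-09). Of 7 pentose phosphate genes 6 were measured, with RPIA lower by 0.50 at 0 h with siHic5_2 (-0.50, adjusted p = 0.0175) and RPIA (-0.49, adjusted p = 0.0123) and PGD (-0.46, adjusted p = 0.00158) lower at 24 h of Dex in siNS. The shares called were 16.7 and 33.3% of this list, beside 25.9 and 39.6% of all genes.

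Of 34 further hypoxia targets 28 were measured, of which SLC2A1 and SLC2A3 (2 genes) stand in the glycolysis list too. With siHic5_2, 6 were higher and 1 lower at 0 h, and 6 and 6 at 24 h. These are 25 and 42.9% of the measured list, beside 25.9 and 29.7% of all genes called. DDIT4, an inhibitor of mTOR signalling (1.44, adjusted p = 0.00119), STC1, a secreted glycoprotein (1.03, adjusted p = 0.00559), INSIG2, a sterol sensor partner (0.85, adjusted p = 2.51e-05), and ERO1A, an oxidase of protein folding (0.72, adjusted p = 5.26e-05), were higher at 0 h. After 24 h of Dex in siNS 11 rose and 6 fell, 60.7% of the list, beside 39.6% of all genes called. STC1 rose by 3.36 (adjusted p = 5.14e-13) and MXI1, a MYC antagonist, by 1.82 (adjusted p = 6.65e-10). ADORA2B, an adenosine receptor, fell by 3.59 (adjusted p = 5.87e-20) and TMEM45A by 2.32 (adjusted p = 6.53e-08). The ADORA2B fall was 1.90 in siHic5_2 (-1.90, adjusted p = 1.31e-11), and the difference of responses was 1.68 (adjusted p = 1.63e-05). CITED2, a transcriptional coregulator that competes with HIF, had a difference of responses of -0.92 at 24 h (adjusted p = 0.0211), and DDIT4 one of -2.46 at 2 h (adjusted p = 0.00687).

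Of 14 HIF pathway regulators 13 were measured. With siHic5_2, 1 was higher at 0 h, 3 at 2 h and 3 at 4 h, with 0 lower. At 24 h 2 were higher and 1 was lower. These are 7.69, 23.1, 23.1 and 23.1% of the measured list, beside 25.9, 25.8, 30.3 and 29.7% of all genes called. VHL, which brings hydroxylated HIF to destruction, was 0.66, 0.77, 0.79 and 0.60 higher with siHic5_2 at 0, 2, 4 and 24 h (adjusted p = 0.000841, 0.000126, 7.33e-05 and 0.00189). HIF1AN, a hydroxylase that blocks HIF from its coactivators, was 0.64, 0.73 and 0.69 higher at 2, 4 and 24 h (adjusted p = 0.0163, 0.005 and 0.00794). After 24 h of Dex in siNS 3 rose, ARNT2 (0.82, adjusted p = 0.00039), EGLN2 (0.36, adjusted p = 0.0261) and ELOB (0.26, adjusted p = 0.0429). This is 23.1% of the regulators, beside 39.6% of all genes called, 19.7% higher. Of 8 glucocorticoid-induced genes all 8 rose at 24 h in siNS, and 5 did in siHic5_2, beside 19.7 and 17.8% of all genes called higher. Responses at 24 h were lower with siHic5_2, by the test of the difference, for 4 of these 8, TSC22D3 (-1.67, adjusted p = 8.58e-07), FKBP5 (-1.36, adjusted p = 0.000114), DUSP1 (-1.06, adjusted p = 0.0204) and ZBTB16 (adjusted p = 0.00218). That test called 3.52% of all genes, 1.88% lower. At 0 h, before Dex, 4 of the 8 were higher in siHic5_2 than in siNS, including TSC22D3 by 1.67 (adjusted p = 5.17e-11) and DUSP1 by 0.93 (adjusted p = 0.000427). Of all genes 25.9% were called then, 13.8% higher. At 2 and 4 h of Dex 3 and 5 of the 8 were lower in siHic5_2 than in siNS and 0 were higher. The median differences were -0.307 and -0.766 then, and 11.5 and 14.1% of all genes were called lower. The levels at 24 h differed less: 1 of the 8 was higher and 1 lower in siHic5_2 than in siNS. Their median difference was -0.015, and 29.7% of all genes were called. A lower response is therefore not a lower level at 24 h for most of these genes.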

How the data were processed

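Gene expression was measured on 48 Illumina HT-12 v4 arrays, 12 groups of 4. The deposited table of intensity values is not normalized, and its control rows were deposited with it. Detection p-values were also deposited by the authors, but per the file headers their columns stand under array names whose own values they do not match (0 of 48 matched their own array, 32 matched another), so they were recomputed from 770 negative-control probes. The authors' processed log2 values were deposited as well. The labels and file headers used here do not say how the authors normalized them, while the submitters' processing notes name limma 3.14.4 and R 2.15.3. They ranked with the array's own intensity on 48 of 48 arrays, lay within 0.263 of the values used here and served as an alternative.

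Intensities were background-corrected (normexp from the negative controls, offset 16), quantile normalized and put on the log2 scale with neqc in limma 3.58.1 (R 4.3.3). Figures used Python 3.11.15 with matplotlib 3.10.9. Probes with a detection p under 0.01 on 4 or more arrays were kept, and the brightest kept probe stood for a gene. The platform annotation gave 30113 probes 1 gene symbol, 8 several and 17202 none. A limma model of the 12 group means was fitted on all 11886 genes, with Benjamini-Hochberg adjustment per comparison and a threshold of 0.05. The fitting was tested on simulated data in which the arrays were independent. That test does not cover arrays that correlate by replicate number, as described below. Alternatives were the authors' values, no background correction, other probe filters, the mean of a gene's probes, slide and replicate blocks, NI as control and leaving out each array.

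The labels share replicate numbers across groups. Deviations from group means of same-numbered arrays correlated in all 4 pairs of each of the 9 hormone comparisons (lowest r 0.123, highest 0.73), so the numbers pair the samples within a state, and a replicate block within each state was added after seeing the data. Same-numbered siNS and NI arrays of a time correlated too (mean r 0.453, 15 of 16 pairs over 0.1), which the block within each state does not use. The 48 arrays lie on 6 slides, and within-slide values are given where a slide held both groups. Members called with a log2 difference of 1 or more, and GAPDH, are given array by array, the others by differences and counts, and up to 4 called genes are named from each further list and comparison described. A few others named (SLC2A3 at early times, HIF1AN, VHL at each time and the glucocorticoid-induced genes before Dex) were chosen after their values were seen. The members and lists were chosen with earlier results of these data known. Sequences came from RefSeq, GRCh38.p14.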

Additional observations from a re-analysis of the deposited data

Results flagged for a closer look

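Among 132 groups of 4 arrays checked over 11 members, 3 held an array far from its group, where chance gives about 1 in 20 groups. PFKP read 9.764 on siHic5_2 2 h replicate 3, against 10.189 to 10.256 on the other 3 arrays. ENO2 read 9.123 on siHic5_2 0 h replicate 4, against 8.67 to 8.73. NDRG1 read 10.983 on NI 0 h replicate 2, against 11.177 to 11.207.

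The 24 h response to Dex differed between siHic5_2 and siNS for PFKP by 0.759 and for ENO2 by 1.757 on the log2 scale, by the test of the difference itself (limma adjusted p = 0.0206 and 0.00227). The fall was the smaller in siHic5_2 for both genes. The ENO2 difference was kept under every alternative run, and the PFKP difference was lost without siNS 0 h replicate 1 or siHic5_2 24 h replicate 2.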

How the results depend on the processing

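Of 85 calls of a member in a comparison, 60 were kept under all alternatives and 25 were lost under at least 1, and 0 reversed. The mean of a gene's probes ended 8, NI as control 6, slide as a block 3 and no detection filter 2. Leaving out 1 array ended a call in 61 of the 696 checks of a call, where 1 call can be ended by several arrays. Means of within-slide differences moved 6 by more than the spread between replicates: ENO2, PKM and EGLN1 at 24 h and NDRG1 at 2 and 4 h in NI, and BNIP3L at 4 h in siHic5_2. The authors' values, no background correction, the stricter probe filter and the replicate blocks ended 0. Member counts moved by over 1.5 times as follows. The replicate block over all groups gave 2 at 2 h in siNS, 3 at 4 h in NI and 5 for the difference of responses at 24 h. The replicate block within each state gave 5 and 3 at 2 and 4 h in siNS, 2 and 7 in siHic5_2, 2 and 5 in NI, and 7 for the difference of responses at 24 h. No background correction gave 2 at 4 h in NI and 4 for that difference, the stricter probe filter gave 2 at 4 h in NI, the mean of probes gave 2 at 2 h in NI, and NI as control gave 5 for that difference. The cause was not tested. Leaving out 1 array gave 6 to 9, 4 to 7, 5 to 12 and 9 to 11 for siHic5_2 against siNS at 0, 2, 4 and 24 h. For Dex at 2, 4 and 24 h it gave 1 to 2, 1 to 2 and 14 to 16 in siNS, 1 to 1, 2 to 4 and 9 to 11 in siHic5_2, and 1 to 2, 1 to 2 and 15 to 17 in NI. It gave 0, 0 and 1 to 4 for the difference of responses, and 0 for siNS against NI. The count became 2 at 2 h in siNS without siNS 0 h replicate 4 or 2 h replicate 3, at 4 h in siNS without siNS 0 h replicate 3, at 2 h in NI without NI 2 h replicate 1, and at 4 h in NI without NI 0 h replicate 1 or 2 or NI 4 h replicate 1 or 3. The measured difference of TGFB1I1 was within -3.555 to -3.301, -3.53 to -3.171, -4.192 to -3.873 and -3.477 to -3.072 at 0, 2, 4 and 24 h, where the values at 4 and 24 h are of a target not above background in siHic5_2 and so are not sizes. Between siHic5_2 and siNS same-numbered arrays did not pair (0, 1, 0 and 0 of 4 pairs over 0.1), and the replicate block ended no member call there and added HK2 (lower) and PFKFB4 at 0 h, NDRG1 (lower) at 2 h, PFKM at 4 h, and HK2 and BNIP3L at 24 h. Signal near background limits TGFB1I1, ENO2, VEGFA and ANKRD37, and EGLN3 was not tested for that reason.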
